A study of Mus musculus with 6 samples.

Results

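Organic ion and drug transporters were described in whole mouse kidney as the genes of 4 symbol families, Slc22a, Slco, Slc47a and Abcc, that had at least 10 counts in 3 or more of 6 RNA sequencing libraries. Of the 24422 genes listed, 52 rows belonged to these families and 42 met the count minimum. These were 23 of 25 Slc22a genes, 8 of 15 Slco genes, both Slc47a genes and 9 of 10 Abcc genes. Of the 42, 35 reached the minimum in all 6 libraries and 1, Slco5a1, reached it in no control library.

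The study asked what changes in the kidney when the transferrin receptor TfR1 (gene Tfrc) is deleted from part of the nephron. The 3 control libraries came from wild type C57BL/6 kidneys, with neither the floxed alleles nor Cre in the label. The other 3 libraries, labelled TfR1KO;KspCre and called knockout libraries here, carried the genotype Tfr1f/f;KspCre on the same strain, with exons 3 and 4 of Tfrc flanked by recombination sites and Cre driven by the Ksp-cadherin promoter, which is active in the distal nephron. Both groups were taken at postnatal day 60 on a diet with 220 ppm iron.

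The proximal tubule clears drugs, toxins and metabolites from blood to urine in a relay. Carriers of the Slc22 family on the blood side take up organic anions (OAT proteins) or organic cations (OCT proteins), and carriers on the urine side, among them the Slc47 exchangers and Abcc pumps, pass them on to the tubule lumen, while other family members recover urate and carnitine from the lumen. Slco genes encode organic anion transporting polypeptides, which carry bile acids, steroid conjugates, thyroid hormones and prostaglandins. Abcc genes encode multidrug resistance pumps that export conjugates, except Abcc8 and Abcc9, which encode the sulfonylurea receptors of potassium channels. Several of the renal carriers are known to differ between male and female mice.

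Among the Slc22a genes, 8 lay in 1 block on chromosome 19 (chr19:7747551-8702789, mm9), which holds the anion carriers Slc22a6 and Slc22a8 and the rodent genes Slc22a19 and Slc22a26 to Slc22a30. The 250 bases before the start of 3 of these rodent genes are shown because the windows share many letters, nearly all of them for Slc22a28 and Slc22a30, and because Slc22a29 went the opposite way to the others in 1 control library. Sequences are from RefSeq on GRCm38.p6, 5′ to 3′ on the strand of the gene, for Slc22a28 at chr19:8131983-8132232, Slc22a30 at chr19:8405106-8405355 and Slc22a29 at chr19:8218901-8219150, all on the minus strand. Capitals mark bases not identical to the aligned base, those without a partner included, in Slc22a30 for the first sequence and in Slc22a28 for the others.
Slc22a28: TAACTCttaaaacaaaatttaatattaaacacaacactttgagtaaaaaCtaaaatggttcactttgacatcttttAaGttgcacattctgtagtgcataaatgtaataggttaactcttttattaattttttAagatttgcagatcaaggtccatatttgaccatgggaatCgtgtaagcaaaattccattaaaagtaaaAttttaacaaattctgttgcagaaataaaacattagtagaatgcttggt
Slc22a30: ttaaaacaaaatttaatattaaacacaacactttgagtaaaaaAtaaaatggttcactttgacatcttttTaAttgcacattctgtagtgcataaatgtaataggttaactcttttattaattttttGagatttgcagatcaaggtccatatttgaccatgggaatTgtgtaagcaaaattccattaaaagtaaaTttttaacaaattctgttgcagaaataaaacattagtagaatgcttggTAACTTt
Slc22a29: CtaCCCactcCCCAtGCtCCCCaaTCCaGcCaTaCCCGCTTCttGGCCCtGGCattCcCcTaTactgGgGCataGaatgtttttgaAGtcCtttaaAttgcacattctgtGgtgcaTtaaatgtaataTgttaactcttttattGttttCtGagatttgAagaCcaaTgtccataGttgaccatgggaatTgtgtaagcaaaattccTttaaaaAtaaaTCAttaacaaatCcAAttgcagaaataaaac
The windows of Slc22a28 and Slc22a30 were offset by 6 bases, and 6 of the 244 aligned bases differed. Slc22a29 shared 73.2% of its bases with Slc22a28, and most of its capitals stand in the first part of the window. The median over 351 pairs of Slc22a and Slco windows was 57.2%.

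Total counts were 18036845 to 21001341 in the controls and 11501053 to 19576330 in the knockouts. Values are CPM, which are TMM-normalised counts per 1000000 counts of a library. Tfrc itself was at 138.5, 167.9 and 61.9 CPM in controls 1, 2 and 3 and at 214.4, 86.0 and 40.6 CPM in knockouts 1, 2 and 3, so the counts of the whole gene did not separate the groups; they include exons outside the deleted ones and cells without Cre, and so do not check the labels. Knockout 1 stood apart from knockouts 2 and 3, at 9.67 on a first principal component (69.4% of the variance) where the controls lay between -72.6 and -53.2 and the other knockouts at 88.6 and 82.1. Control 2 stood apart in sex-linked transcripts, with 52 counts of Xist against 10458 to 23845 in the other 5 libraries and 1451 counts of the Y-linked Ddx3y against at most 4. The labels give no sex. The 16 proximal tubule marker genes summed to 21630, 31390 and 29070 CPM in the controls and to 11250, 4738 and 3608 CPM in the knockouts, and their log2 fold changes ran from -5.39 to -0.98 with a median of -2.12. The lowest value is that of Slc7a13 alone (adjusted p = 0.1413), which was 0.23 without control 2; the range was then -2.60 to 0.23 and the median -2.01, with 15 of 16 lower. In bulk kidney, fewer cells of a type and less RNA per cell cannot be told apart.

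Most of these transporters were lower in the knockout kidneys, but the families did not move alike. Of the 41 transporters tested, 30 were lower and 11 higher at any size, with a median log2 fold change (knockout over control) of -1.49 against 0.02 over all 15171 genes tested. By edgeR's quasi-likelihood test, 10 fell at an adjusted p under 0.05, which is 24.4% of the 41 against a background of 6.64% of all genes: Slc22a4, Slc22a5, Slc22a6, Slc22a7, Slc22a19, Slc22a22, Slc22a28, Slc47a1, Slco1a6 and Abcc2. Abcc8 alone rose, 2.44% of the 41 against 10.6% of all genes. At an unadjusted p under 0.05, 23 were lower (56.1%, background 17.6%) and 3 were higher (7.32%, background 21.0%).

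The 3 knockout libraries all lay below the 3 controls for 21 transporters (51.2%, against 22.2% of all genes) and all above them for 3 (7.32%, against 23.8%). Knockout 1 was the highest of the knockout libraries for 26 of the 30 lower transporters, and so nearest to the controls. It was also nearest to them on the first principal component over all genes, so this is no trait of the transporters alone. The share over all lower genes was not counted. Without knockout 1, 19 of 42 passed the adjusted threshold as lower (45.2%, background 16.4%) and 4 as higher (9.52%, background 18.0%), the latter being Abcc8, Slc22a15, Slco2a1 and Slco5a1. Slco5a1 met the count minimum only through the knockouts, so its call is no support. Without it 3 of 41 were higher (7.32%). On the other side, Slc22a14, Slc22a26, Slc47a2 and Slco4c1 reached the minimum in 3 controls but in fewer than 3 knockouts. Slc22a27 reached it in 2 controls and 1 knockout. Of these, Slc22a14 and Slc22a27 are among the 19 lower, Slc22a26 among the 21, and Slc22a26 and Slc22a27 among the 23. They remain in those counts, and their falls are no support either.

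Without control 2, no gene of the 15565 tested passed the adjusted threshold (0.0%), and the smallest adjusted p of any gene was 0.1175. All 11 transporters named above kept their direction and an unadjusted p under 0.05 in that fit, with adjusted p from 0.1175 to 0.1425. In all, 20 of 42 were lower at an unadjusted p under 0.05 (47.6%, background 12.4%) and 4 were higher (9.52%, background 15.0%). With Slco5a1 left out for the same reason, 3 of 41 were higher (7.32%). Slc22a26 and Slc22a27 remain among the 20 lower. The median log2 fold change was -1.20.

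**Figure D1:**
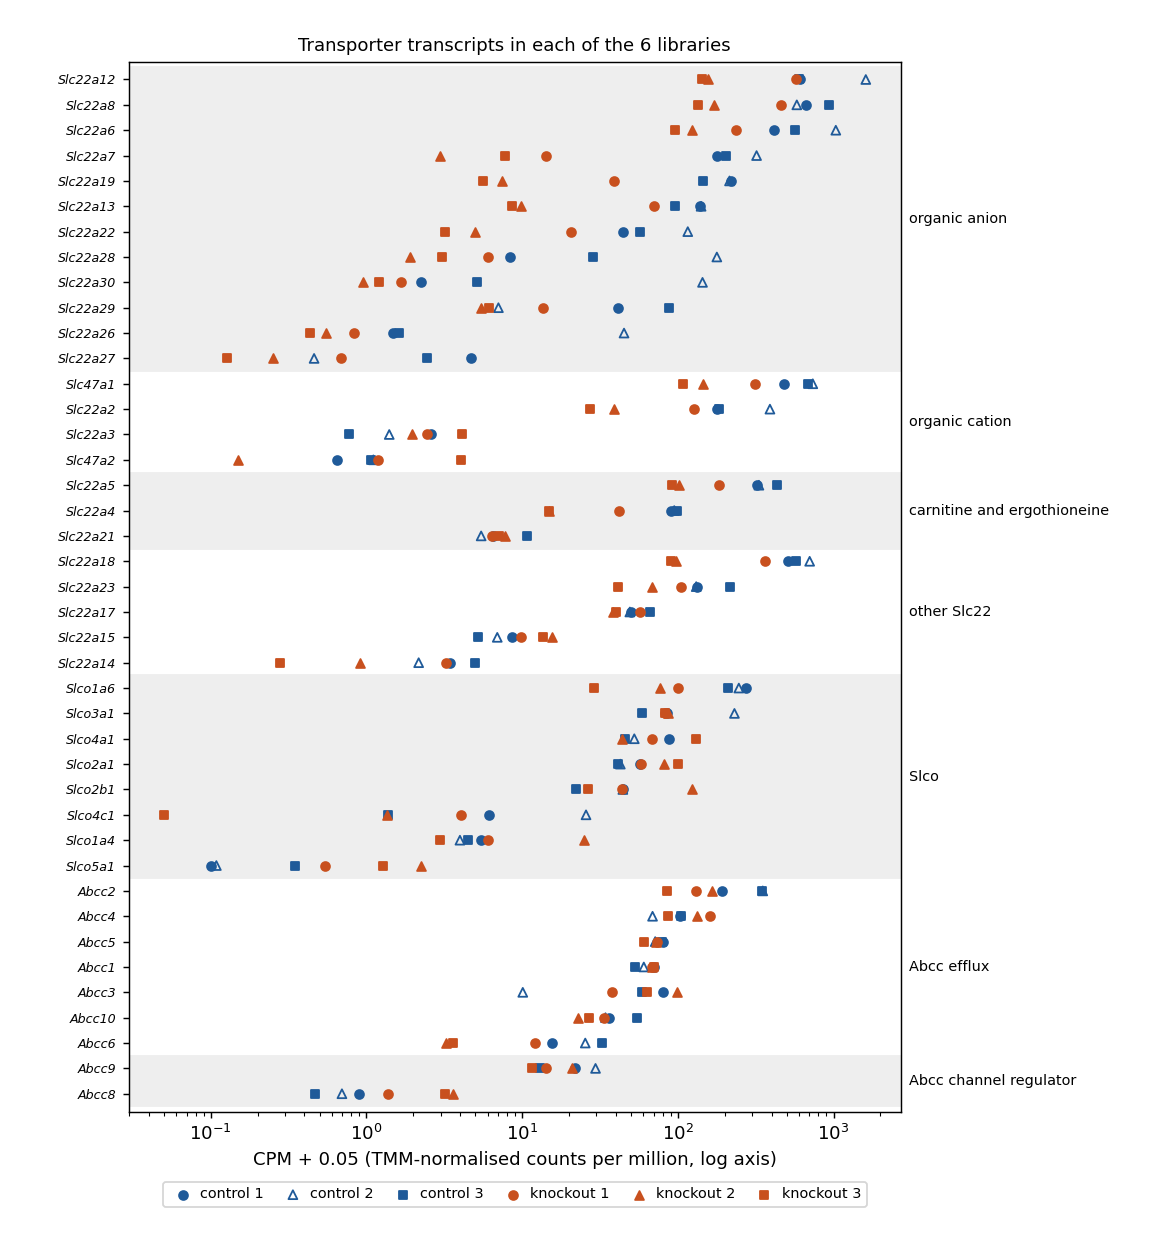
Level of 41 of the 42 transporters in each library, in CPM plus 0.05 on a log axis, grouped by role; each symbol is 1 library, and control 2 is the hollow triangle. The knockout symbols of the organic anion carriers lie mostly to the left of the controls, with a wide gap for Slc22a7, while those of most Abcc pumps overlap them.

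Of the 7 roles, the organic anion carriers had the lowest median log2 fold change. All 12 were lower in the knockouts, that median was -2.92 (-2.18 without control 2, -4.09 without knockout 1), and 5 passed the adjusted threshold, which 6.64% of all genes passed as lower. Their summed level was 2331, 4392 and 2725 CPM in the controls and 1436, 483 and 409 CPM in the knockouts, so that every knockout lay below every control.

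Slc22a7 encodes OAT2, a carrier of small organic anions and of cyclic GMP (chr17:46569134-46575426, minus strand, mm9). It was at 178.1, 320.3 and 204.6 CPM in the controls and at 14.1, 2.91 and 7.66 CPM in the knockouts. All 3 knockouts were far below the lowest control, and knockout 1 was low as well. The mean was 28.5-fold lower, with a log2 fold change of -4.83 ± 0.60 (SE, adjusted p = 0.027), of -4.55 without control 2 and of -5.51 without knockout 1. This was 2.71 log2 units below the median of the proximal tubule markers.

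Slc22a19, which encodes the urine-side anion exchanger OAT5 (chr19:7747551-7785800, minus strand), was at 220.8, 214.7 and 144.4 CPM in the controls and at 38.7, 7.33 and 5.59 CPM in the knockouts. The groups were well apart, and control 2 was within the other controls. Its log2 fold change was -3.48 ± 0.76 (SE, adjusted p = 0.033), -3.41 without control 2 and -4.90 without knockout 1.

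Slc22a22 encodes a kidney carrier for prostaglandins (chr15:57075322-57309180, minus strand). Its controls were at 44.7, 115.8 and 57.1 CPM and its knockouts at 20.6, 4.92 and 3.14 CPM. Control 2 was the highest control, by 2.28-fold over the mean of the others, and the groups did not overlap with or without it. The log2 fold change was -2.91 ± 0.75 (SE, adjusted p = 0.044), against -2.42 without control 2 and -4.16 without knockout 1.

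Slc22a6 and Slc22a8 encode OAT1 and OAT3, the main uptake carriers for organic anions on the blood side. Slc22a6 (chr19:8692486-8702789 on mm9, plus strand), was at 417.4, 1034 and 565.0 CPM in the controls and at 235.8, 122.8 and 95.9 CPM in the knockouts. No knockout reached the lowest control. The log2 fold change was -2.15 ± 0.47 (SE, adjusted p = 0.033), close to the median of the proximal tubule markers, and -1.71 without control 2. Slc22a8, its neighbour (chr19:8665744-8686324, plus strand), was at 664.1, 580.8 and 934.7 CPM against 461.5, 169.9 and 134.1 CPM. Its groups did not overlap either, but its log2 fold change of -1.51 ± 0.49 did not pass the adjusted threshold (adjusted p = 0.072); without knockout 1 it was -2.27 and passed (adjusted p = 0.0034).

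Slc22a12 encodes URAT1, the carrier that recovers urate from the tubule lumen (chr19:6535845-6543019, minus strand). It was at 609.9, 1611 and 597.6 CPM in the controls and 572.2, 156.3 and 143.6 CPM in the knockouts. Knockout 1 was just below controls 1 and 3, and control 2 was far above both. Its control mean was the highest of the transporters in CPM with control 2 counted, while Slc22a8 was above it in controls 1 and 3. The log2 fold change was -1.69 ± 0.67 (adjusted p = 0.113), -1.07 without control 2, and -2.66 without knockout 1, where it passed (adjusted p = 0.012). Slc22a13, which encodes the nicotinate and urate exchanger OAT10, had a log2 fold change of -2.07 ± 0.81 (adjusted p = 0.109), with knockout 1 at 70.6 CPM and knockouts 2 and 3 at 9.79 and 8.50 CPM. It was -3.78 and passed without knockout 1 (adjusted p = 0.0020), and 72.4% of the 100-base words of its transcript were in no other gene.

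The remaining 5 anion genes are the rodent group Slc22a26 to Slc22a30, and the control levels of 3 of them, Slc22a26, Slc22a28 and Slc22a30, were set largely by control 2. Slc22a28 (chr19:8136699-8206472 on mm9, minus strand) was at 8.31, 178.0 and 28.6 CPM in the controls and at 5.99, 1.86 and 2.99 CPM in the knockouts. Knockout 1 was close to control 1, although the groups did not overlap. The log2 fold change of -4.30 ± 1.16 (SE, adjusted p = 0.048) moved to -2.37 without control 2, and with all 6 libraries limma-voom gave -3.38 (adjusted p = 0.190). It was -4.92 without knockout 1. Slc22a30 was at 2.19, 144.0 and 5.10 CPM against 1.62, 0.90 and 1.15 CPM, and its log2 fold change moved from -5.35 (adjusted p = 0.065) to -1.58. For Slc22a26 the values were 1.44, 45.1 and 1.56 CPM against 0.79, 0.50 and 0.38 CPM, and the log2 fold change moved from -4.80 (adjusted p = 0.067) to -1.41.

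Slc22a29 and Slc22a27 went the other way in control 2. Slc22a29 was at 41.5, 6.99 and 87.2 CPM in the controls and at 13.5, 5.42 and 6.05 CPM in the knockouts, so that control 2 lay among the knockouts. Its log2 fold change was -2.43 (adjusted p = 0.081) and -2.96 without control 2. Slc22a27 had 93, 7 and 40 counts in the controls and 13, 4 and 1 in the knockouts, with a log2 fold change of -2.93 (adjusted p = 0.076), of -3.44 without control 2 and of -4.02 without knockout 1, where it passed (adjusted p = 0.044). Near-identical copies leave these values uncertain, since only uniquely mapped reads were counted: the share of 100-base words found in no other gene was 63.0% for Slc22a28, 75.7% for Slc22a30, 91.6% for Slc22a29 and 92.3% for Slc22a27, while Slc22a26 shared none.

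**Figure D2:**
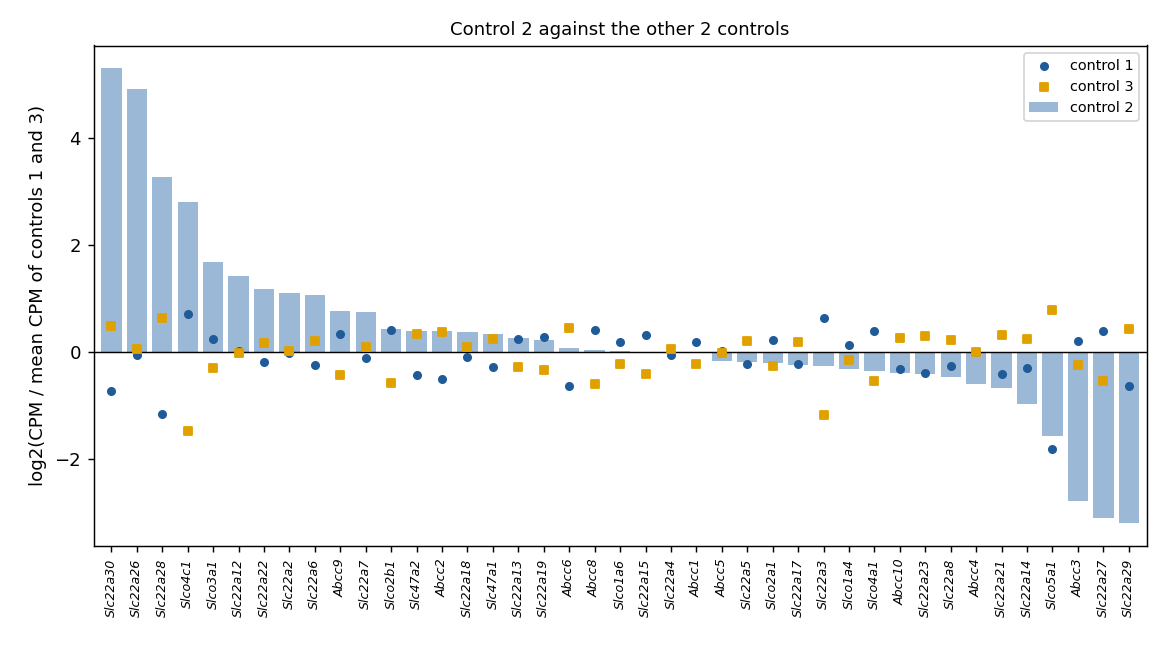
Level of 41 of the 42 transporters in control 2 (bars) and in controls 1 and 3 (points), as the log2 ratio to the mean CPM of controls 1 and 3. Slc22a30, Slc22a26 and Slc22a28 stand far above 0 in control 2, and Slc22a29, Slc22a27 and Abcc3 far below.

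Against controls 1 and 3, control 2 was at least 2-fold above both for 8 of the 41 tested transporters (19.5%, against 1.25% of all genes) and at least 2-fold below both for 3 (7.32%, against 2.28%). The 8 were Slc22a2, Slc22a12, Slc22a22, Slc22a26, Slc22a28, Slc22a30, Slco3a1 and Slco4c1, and the 3 were Slc22a27, Slc22a29 and Abcc3. Control 2 was 39.5-fold above the mean of the other controls for Slc22a30 and 9.64-fold for Slc22a28, and 4.91 log2 units above it for Slc22a26. Slco1a1, a bile acid and steroid conjugate carrier that missed the count minimum, had 1, 3971 and 6 counts in the controls and 2, 15 and 0 in the knockouts. Its control signal therefore came from control 2, the library with Y-linked transcripts. A list of 10 genes known to be sex-biased in mouse kidney summed to 37260 CPM in control 2 and to 7827 and 13460 CPM in the other controls, and Kap alone gave 31290 CPM of the first. Of the 10, 6 were higher in control 2 than in both other controls, 3 were lower and 1 lay between. The list's median log2 fold change was -3.21 with control 2 and -0.80 without it. With 1 such library the part of sex in these values cannot be told apart from other differences of that kidney.

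At the edge of the count minimum, Slc22a27 and Slco5a1 were inside with 3 libraries each, and Slco1a1, Slco1a5 and Slco1c1 were outside with 2 each. Of the 10 rows outside, 4 had 0 counts in all libraries.

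Of the 5 organic cation genes, 1 fell (6.64% of all genes did). Slc47a1 encodes MATE1, the proton exchanger that passes cations into the lumen (chr11:61156902-61191847, minus strand). It was at 478.2, 735.6 and 687.1 CPM in the controls and at 312.0, 144.1 and 107.9 CPM in the knockouts. Every knockout was below every control, with a log2 fold change of -1.75 ± 0.42 (SE, adjusted p = 0.039), -1.65 without control 2 and -2.34 without knockout 1.

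On the blood side, Slc22a2 (OCT2), the main renal cation uptake carrier, was at 179.0, 390.3 and 182.6 CPM against 127.0, 38.7 and 27.1 CPM. The groups did not overlap, and the log2 fold change was -1.96 ± 0.63 (adjusted p = 0.070), -1.50 without control 2, and -2.94 without knockout 1, where it passed (adjusted p = 0.0054). Slc22a3 (OCT3) and Slc47a2 were below 5 CPM in every library and their groups overlapped.

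Of the 3 carnitine and ergothioneine carriers, 2 fell (6.64% of all genes did). Slc22a4 encodes OCTN1, which carries ergothioneine (chr11:53796625-53841592, minus strand). It was at 91.0, 94.8 and 99.1 CPM in the controls and at 41.7, 14.9 and 14.9 CPM in the knockouts. The controls lay within 10% of each other, and control 2 was between the others. The log2 fold change was -1.99 ± 0.42 (SE, adjusted p = 0.032), -2.01 without control 2 and -2.68 without knockout 1.

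Slc22a5 encodes OCTN2, which recovers carnitine from the filtrate (chr11:53678044-53705162, minus strand). It was at 321.5, 331.6 and 432.3 CPM against 183.3, 102.4 and 92.0 CPM, and the groups did not overlap. Its log2 fold change was -1.52 ± 0.30 (SE, adjusted p = 0.031), and -1.60 without control 2. Its neighbour Slc22a21, another carnitine carrier, had a log2 fold change of -0.10 ± 0.31 and overlapping groups, and turned to 0.17 when libraries were scaled by size alone, which moved the median of all genes by 0.27. The 2 genes share sequence, with 86.3% of the 100-base words of Slc22a5 and 87.9% of those of Slc22a21 in no other gene.

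Of the other 5 Slc22 genes, 4 were lower and none passed the adjusted threshold. The most abundant was Slc22a18 (chr7:150659626-150685239, plus strand), at 507.0, 702.3 and 577.1 CPM in the controls and 360.9, 97.6 and 90.9 CPM in the knockouts. The groups did not overlap, with a log2 fold change of -1.70 ± 0.56 (adjusted p = 0.072), and of -2.67 without knockout 1, where it passed (adjusted p = 0.0023). Slc22a17, which encodes a receptor for the iron carrier lipocalin 2, was at 49.9, 49.1 and 66.5 CPM against 57.1, 38.5 and 40.0 CPM, and its groups overlapped. Slc22a15 was higher in all 3 knockouts than in any control, with a log2 fold change of 0.91 ± 0.28 (adjusted p = 0.065), and of 1.07 without knockout 1, where it passed (adjusted p = 0.028).

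The Slco genes did not share a direction. Of 7 tested, 3 were lower and 4 higher, with a median log2 fold change of 0.38. Slco1a6 was the most abundant of them (chr6:142034282-142157042, minus strand) and the one that fell, from 275.9, 246.4 and 208.8 CPM in the controls to 100.2, 77.1 and 29.0 CPM in the knockouts. No knockout came near the lowest control, and the log2 fold change was -1.82 ± 0.43 (SE, adjusted p = 0.037), or -1.83 without control 2.

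Slco2a1, the prostaglandin uptake carrier, was at 57.1, 42.7 and 40.9 CPM in the controls and at 58.2, 81.9 and 100.4 CPM in the knockouts. Knockout 1 exceeded control 1 by little, and the log2 fold change of 0.77 ± 0.24 missed the threshold (adjusted p = 0.062), which it passed without knockout 1 at 0.95 (adjusted p = 0.014). Slco3a1, which also carries prostaglandins, was at 85.2, 230.9 and 58.8 CPM against 83.2, 85.8 and 82.4 CPM. The knockouts lay almost on each other and inside the control range, so that the log2 fold change of -0.58 turned to 0.21 without control 2. Slco4c1, a carrier of digoxin and thyroid hormone, had 122, 437 and 22 counts in the controls and 81, 26 and 0 in the knockouts, with overlapping groups. Slco5a1 had 1, 1 and 5 counts in the controls and 10, 44 and 16 in the knockouts; it passed the count minimum through the knockouts, and was too low to be tested with 6 libraries.

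Of the 7 Abcc pumps, 1 fell, which was Abcc2 (6.64% of all genes did). It encodes MRP2, a pump for conjugated drugs on the urine side of the proximal tubule (chr19:43856682-43912441, plus strand). Its values were 190.7, 351.0 and 347.3 CPM in the controls and 129.9, 166.0 and 85.7 CPM in the knockouts. The gap between control 1 and knockout 2 was small beside the range of the controls, and knockout 1 was not the highest knockout here. The log2 fold change was -1.22 ± 0.33 (SE, adjusted p = 0.048), or -1.10 without control 2. The call was also lost without knockout 1 (adjusted p = 0.052), by library size alone (0.061), with at least 10 counts in every library (0.05005) and by limma-voom (0.052).

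The other pumps did not pass the adjusted threshold. Abcc6, which is needed for ATP release and is mutated in pseudoxanthoma elasticum, was nearest to it, at 15.5, 25.4 and 32.6 CPM in the controls and 11.98, 3.21 and 3.52 CPM in the knockouts, with a log2 fold change of -1.96 ± 0.57 (adjusted p = 0.055), and of -2.87 without knockout 1, where it passed (adjusted p = 0.0039). Abcc4 (MRP4), which shares the urine side with Abcc2 and exports urate and cyclic nucleotides, was at 103.2, 68.8 and 104.5 CPM against 161.8, 132.3 and 86.8 CPM, with a log2 fold change of 0.46 ± 0.27 and overlapping groups. Abcc1, a pump found in most cells, was nearly level, at 52.9 to 70.3 CPM in the controls and 67.9 to 70.2 CPM in the knockouts. Abcc3 was at 80.5, 10.1 and 58.5 CPM against 37.7, 98.6 and 63.1 CPM. Control 2 was its lowest library, and the log2 fold change of 0.42 turned to -0.074 without it. Abcc5 and Abcc10 had log2 fold changes of -0.16 and -0.59, and that of Abcc5 turned to 0.11 when libraries were scaled by size alone, as did the median of the Abcc pumps, from -0.16.

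The transporter that rose, Abcc8, encodes the sulfonylurea receptor SUR1 (chr7:53359893-53435403, minus strand). It had 17, 11 and 7 counts in the controls, or 0.85, 0.65 and 0.42 CPM, and 27, 71 and 41 counts in the knockouts, or 1.33, 3.56 and 3.14 CPM. All knockouts were above all controls, at few counts. Its log2 fold change was 2.05 ± 0.50 (SE, adjusted p = 0.040), and 2.05 without control 2. Abcc9 (SUR2) was at 13.0 to 29.6 CPM in the controls and 11.6 to 20.8 CPM in the knockouts, which overlapped.

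**Figure D3:**
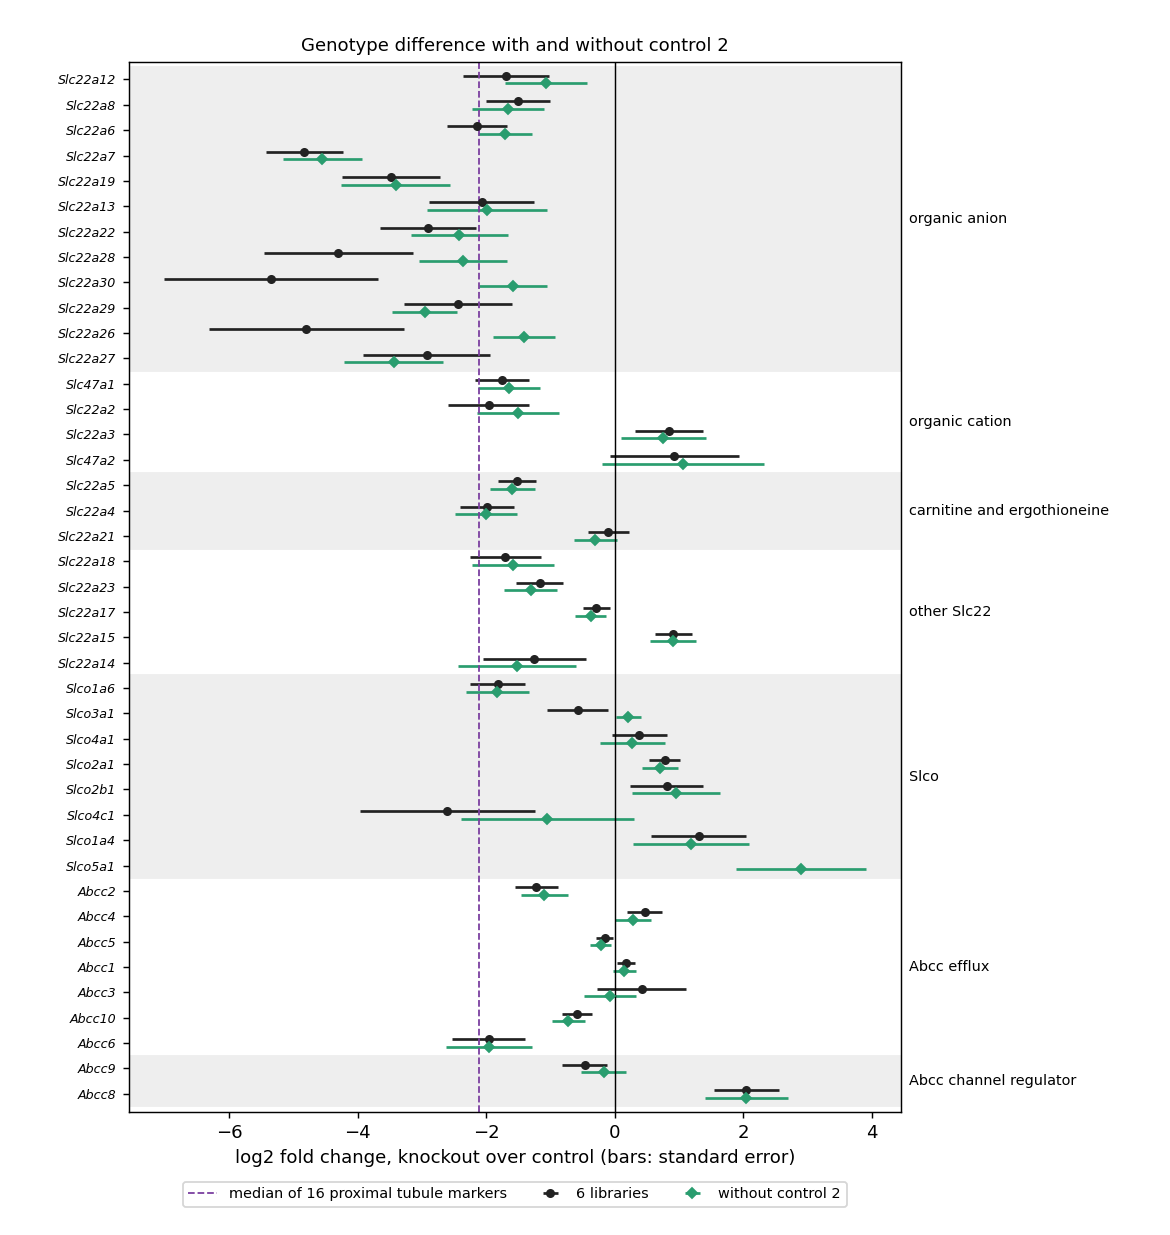
Log2 fold change of 41 of the 42 transporters, knockout over control, with its standard error as a bar, for all 6 libraries (black) and without control 2 (green); the dashed line is the median of 16 proximal tubule markers, -2.12. Slc22a30, Slc22a26 and Slc22a28 move most between the fits, and Slco5a1 has a value only without control 2.

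Per kilobase of transcript, the transporters named here with the highest mean control levels were, in order, Slc22a12 (425 CPM per kb, range 270.0 to 728), Slc22a18 (384, range 327 to 452), Slc47a1 (212, range 160.0 to 246), Slc22a8 (209, range 167 to 269) and Slc22a6 (167, range 104 to 257). The ranges of Slc22a12 and Slc22a18 overlapped, as did those of the next 3, so their order within each was not larger than the spread of the controls. Without control 2 the means were 349 CPM per kb for Slc22a18, 273 for Slc22a12, 230 for Slc22a8, 195 for Slc47a1 and 122 for Slc22a6. The order thus turned in both sets. Slc22a5 was then at 123 CPM per kb, just above Slc22a6, and took its place among the highest named. At the other end, Abcc8 was at 0.13 CPM per kb and Slco5a1 at 0.016 CPM per kb.

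Set beside the proximal tubule markers, 10 of the 41 transporters had a lower log2 fold change than the marker median of -2.12, and 31 a higher one. Without control 2 the marker median was -2.01, and 6 of 42 were below it, Slc22a7, Slc22a19, Slc22a22, Slc22a27, Slc22a28 and Slc22a29. As a percentage of the summed marker CPM, the organic anion carriers were at 10.8%, 14.0% and 9.37% in the controls and at 12.8%, 10.2% and 11.3% in the knockouts. Their share of the marker sum thus overlapped between the groups, with a difference of 0.051 percentage points (exact permutation test, two-sided, p = 1.0). That difference rested on control 2, without which controls 1 and 3 averaged 10.1% and the knockouts were 1.36 percentage points higher, a value added after seeing the data and not tested. The organic cation carriers were at 5.04%, 5.09% and 4.50% against 6.44%, 6.14% and 6.37%, so all knockouts were slightly above the controls. The Abcc pumps were at 2.67%, 1.98% and 2.51% against 4.59% to 11.9%, and the Slco genes at 2.60%, 2.06% and 1.32% against 3.24%, 9.29% and 10.3%. Both shares were above all controls in every knockout, most in knockouts 2 and 3, in which the marker sum was lowest. The summed levels themselves were not higher, with the Abcc pumps at 577.0, 621.4 and 729.3 CPM in the controls and 516.6, 563.7 and 396.9 CPM in the knockouts, all below the controls. The Slco genes were at 561.6, 646.4 and 382.7 CPM against 364.1, 440.4 and 373.2 CPM, which overlapped. For these 3 roles the exact permutation test gave p = 0.1, the smallest that 3 against 3 libraries allow.

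**Figure D4:**
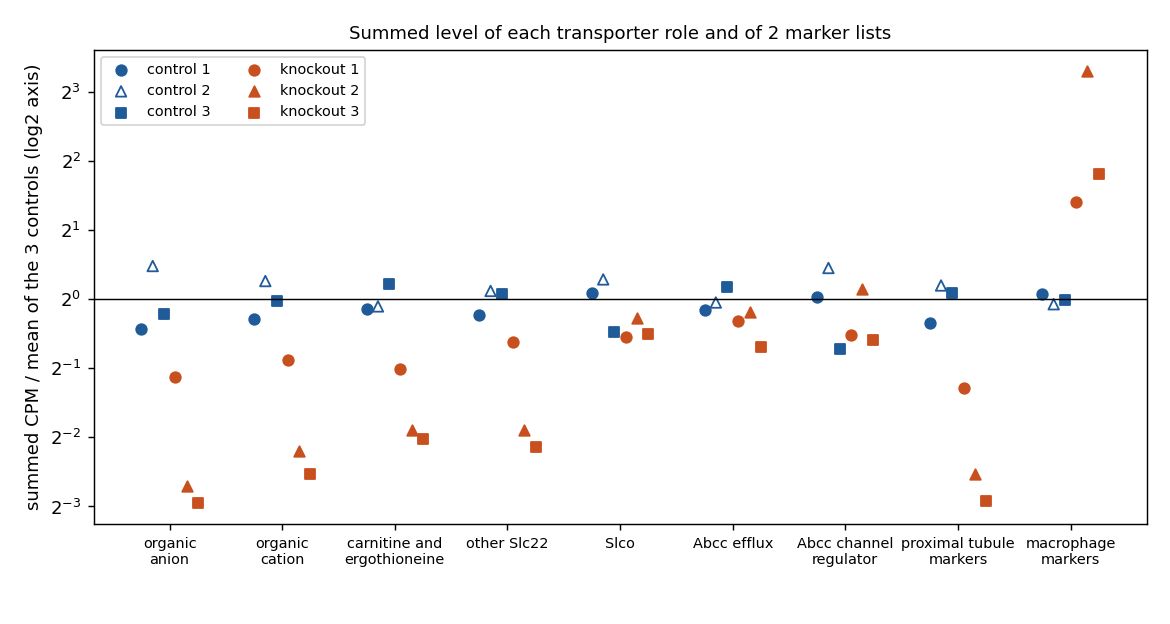
Summed CPM of each role and of the proximal tubule and macrophage marker lists in each library, divided by the mean of the 3 controls, on a log2 axis. The organic anion and organic cation sums follow the proximal tubule markers down, knockout 1 least, while the Slco and Abcc efflux sums stay closer to the controls and the macrophage sum lies above them.

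Markers of other cell types moved with the genotype as well. Of all genes, 6.64% fell and 10.6% rose at the adjusted threshold. The 7 macrophage markers listed summed to 161.2 to 179.2 CPM in the controls and 447.9 to 1665 CPM in the knockouts, and 6 of them rose. The 6 fibroblast markers summed to 222.8 to 486.4 CPM against 727.8 to 2804 CPM, with 2 that rose, and the 6 T and B cell markers to 4.76 to 8.10 CPM against 15.0 to 53.4 CPM, with 3 that rose. In the nephron, the proximal tubule list had 12 of 16 genes that fell. The 5 thick ascending limb markers summed to 3980 to 9711 CPM against 866.6 to 6200 CPM with none called. Their median log2 fold change was -1.46 (-1.27 without control 2), and knockouts 2 and 3 lay far below every control, at 866.6 and 1181 CPM. The 4 distal convoluted tubule markers had 1 that fell and a median of -0.90. The 7 collecting duct markers summed to 961 to 1310 CPM against 437.7 to 1505 CPM, with none called and a median of -0.31. Podocyte markers summed to 517.2 to 637.1 CPM against 621.9 to 920.8 CPM with 1 of 4 called higher, endothelial markers to 496.2 to 923.9 CPM against 738.7 to 1093 CPM, and hepatocyte and adipocyte markers to 108.7 to 267.1 CPM against 41.7 to 119.1 CPM, none of either called. No list had a marker at 0 in all libraries. The part of these lists in the transporter values was not tested.

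A list of 40 related genes, made of 31 carriers, pumps and scaffolds and 9 transcription factors and nuclear receptors, had 37 genes tested and gave 16 that fell and 1 that rose (background 6.64% and 10.6% of all genes), and the median log2 fold change was -1.30 (-1.23 without control 2). The largest falls were in Slc17a2, with a log2 fold change of -4.21 ± 1.15 (SE, adjusted p = 0.049), and Slc17a3, with -2.78 ± 0.56 (SE, adjusted p = 0.031), carriers of the phosphate and urate type. Slc17a2 was at 13.7, 1.29 and 31.9 CPM in the controls and 0.54, 0.40 and 1.69 CPM in the knockouts, so that control 2 lay within the knockout range, and its log2 fold change was -4.77 without control 2. Slc17a3 was at 262.1, 744.2 and 309.8 CPM against 98.7, 61.1 and 31.8 CPM, and its log2 fold change was -2.18 without control 2. The largest increases were in the nucleoside carrier Slc28a3, with 1.36 ± 0.56 (SE, adjusted p = 0.125), and the aryl hydrocarbon receptor gene Ahr, with 1.28 ± 0.40 (SE, adjusted p = 0.066), and neither passed. By group, the list held 2 of 4 bile acid carriers that fell, both oligopeptide carriers, 2 of 6 nucleoside carriers, 2 of 6 urate and phosphate-type carriers, 3 of 4 dicarboxylate and sulfate exchangers, 1 of 3 PDZ scaffolds and 0 of 4 efflux pumps outside Abcc.

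Within this list, 4 of the 16 falls were among the 8 transcription factors and nuclear receptors tested, including Hnf4a (log2 fold change -1.59), Ppara (-1.66) and Nr1h4, the bile acid receptor (-1.59). The 1 that rose was Nfe2l2, which encodes the oxidative stress factor NRF2, by 0.59 ± 0.15 (SE, adjusted p = 0.044). Hnf4a and the dicarboxylate carrier Slc13a3 are also among the 16 proximal tubule markers.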

How the data were processed

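Poly-A RNA of 6 whole kidneys was sequenced. The authors called bases with CASAVA 1.8.2, trimmed reads with Trimmomatic, aligned them to mm9 with TopHat 2.0.11, kept uniquely mapped reads and counted them with HTSeq, and deposited raw counts per gene. Which annotation was counted, and with which strand setting, is not given in the sources used here, so genes that overlap others are uncertain (9 of the 42 transporters on the other strand, 5 on the same strand). All value columns were matched to samples. The study calls its samples biological replicates.

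Counts were tested with edgeR 4.0.16 in R 4.3.3 (filterByExpr, TMM, quasi-likelihood F test with no covariate over all genes, Benjamini-Hochberg adjustment, threshold 0.05). The standard error is the size of the log2 fold change divided by the square root of F. The fits were tested on simulated data. Alternatives were other scalings, filters and edgeR settings, DESeq2 1.42.0 (the tool the study names), limma-voom (limma 3.58.1), each library left out, the replicate number as a block and the Xist to Y-linked ratio as a covariate. Gene positions are from GENCODE M1 (mm9), where all 42 matched. Promoter windows are from RefSeq (GRCm38.p6), where 32 matched.

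Values per library are given for transporters with an adjusted p under 0.05, the 10 of highest mean CPM (1 of them is not reported here) and those that change direction without control 2; others named in addition were chosen after their values were seen. Transporters, roles and gene lists were chosen with earlier results of these data known. Same-numbered libraries did not deviate together (correlations -0.129, 0.0116 and 0.215), so numbers were not taken as pairs.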

Additional observations from a re-analysis of the deposited data

Results flagged for a closer look

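Slco1a5, which missed the count minimum and entered no test with 6 libraries, had 0 counts in each control and 3, 20 and 100 counts in knockouts 1, 2 and 3. It was listed because all of its signal was in the knockouts, above a floor of 3 counts in knockouts 2 and 3. Of the 100-base words of its transcript, 97.9% were in no other gene, and it overlaps Iapp on the other strand.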

How the results depend on the processing

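With 10 transporters called lower and 1 higher, DESeq2's Wald test called 20 and 3 (adjusted p was NA for Slc22a26 and Slc22a30). Higher calls were 3 by library size alone, 2 with no filter, 0 with at least 10 counts in every library and 0 by limma-voom. Abcc2 was no longer called lower by library size alone, with at least 10 counts in every library, by limma-voom or without knockout 1, nor Slc22a28 by limma-voom. Leaving out 1 library gave 0 to 19 lower and 0 to 4 higher calls and 0 to 26 calls of related transport genes against 17, and a median log2 fold change of -2.05 to -1.10. The highest of each came without knockout 1, which also gave the lowest median, and lower calls were 1 without knockout 2 and 0 without knockout 3 or any control. Both the replicate block and the covariate gave 0 lower, 0 higher and 0 related calls, with 23 transporters each at an unadjusted p under 0.05 (5432 and 4221 of all genes); without control 1, 2 or 3 these were 26, 24 and 21 (4808, 4270 and 4823 of all genes). The 18 transporters recomputed under the alternatives kept their direction in each they were fitted in, except Abcc3, which was -0.030 with the covariate (-0.074 to 0.93 over libraries left out), and Slco3a1, which was 0.19 with it (-0.92 to 0.21); both turned without control 2. The cause was not tested. Slc22a21 and Abcc5, not among the 18, turned by library size alone, moving about as far as the median of all genes (0.27). Slco5a1, Slc47a2, Slc22a3 and Abcc8 rest on few counts.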
